A study of Mus musculus with 6 samples.

Results

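The matrix metalloproteinases (MMPs), the ADAMTS and ADAMTS-like proteins and the tissue inhibitors of metalloproteinases (TIMPs) were followed in 3 cell populations sorted from mouse hind limb muscle. Members were taken by symbol: every named probe whose gene symbol is Mmp or Adamts followed by a number, Adamtsl followed by a number, or Timp1 to Timp4, with the brightest probe kept for each gene (highest mean over the 6 arrays). The rule gave 48 genes on 54 probes, of 19321 named genes on 20690 probes, and it used no measured difference between groups. Mmp15, Mmp27 and Adamts2 were not analysed here.

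The arrays hold cells of C57BL/6 mice, aged (24 to 28 months) or young (8 to 10 weeks), with no genetic change or treatment named in the labels. The populations are PDGFRa+ mesenchymal progenitors, the interstitial cells that can give rise to fibroblasts and adipocytes; satellite cells, which are the muscle's own stem cells; and a mixture of CD31+ or CD45+ cells (called CD31_CD45 below), which holds endothelial and blood-derived cells. For each population and age, cells of repeated sorts were pooled onto 1 array, so there is no replicate within a population and age and the spread between animals is not measured. The study asked which genes are particular to each population and which differ with age.

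MMPs are zinc proteases that cleave collagens and other proteins of the extracellular matrix, and most are secreted as inactive precursors that another protease must open. ADAMTS proteases are secreted relatives that cleave proteoglycans, trim procollagens or act on the microfibril network, while ADAMTS-like proteins keep the binding domains and lack the protease. TIMPs bind the active site of these enzymes, and the balance of proteases and TIMPs sets how the matrix between muscle fibres is turned over.

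Across arrays, 88.4% to 92.3% of 23473 probes and 42 to 46 of the 48 members were above background. The sort markers were brightest in their own populations: Pdgfra read 4149.0 in aged and 5700.4 in young PDGFRa+ cells, Pax7 read 1361.6 in aged and 1055.0 in young satellite cells, Pecam1, which encodes CD31, read 2450.7 in aged and 2464.8 in young CD31_CD45 cells, and Ptprc, which encodes CD45, read 414.6 in aged and 251.7 in young CD31_CD45 cells. Intensities are in the units deposited by the authors, in which the median probe of each array reads 25. Brightness depends on the probe as well as on the transcript, so levels are compared between arrays and never between genes. The scans fell into 2 sets by the slope between scanner gains. Aged PDGFRa+, young PDGFRa+ and young satellite arrays had slopes of 0.465 to 0.466, and aged satellite, aged CD31_CD45 and young CD31_CD45 arrays had slopes of 0.477 to 0.478.

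Part of the family was dim in all 6 arrays, taken here as no array above the array median of 25. Many genes lie under that median by definition, and their share over all genes was not counted. Of the 48 members, 40 were above background on every array and 45 on at least 2, the number needed for a test. Of all 19321 named genes, 18372 met that need. Mmp1a and Mmp21 were above background on no array, and Mmp20, the enamel protease, on aged satellite cells alone, where it read 0.9. In 20 members no array exceeded the array median of 25, among them the collagenase Mmp1b (1.2 to 2.2), the stromelysin Mmp10 (0.8 to 1.7), the epithelial protease Mmp7 (4.9 to 7.2) and Adamts13 (2.4 to 8.3), the protease of von Willebrand factor. At the other end, Mmp2, Adamts1, Timp2, Timp3 and Timp4 lay far above the array median, with highest values of 4625.0, 2226.3, 1576.5, 3659.1 and 4860.5.

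Several of the secreted MMPs lie side by side on mouse chromosome 9, in the order Mmp13, Mmp12, Mmp1b, Mmp3, Mmp1a, Mmp10, Mmp8, Mmp27, Mmp20 and Mmp7. Promoters of this cluster are known as targets of the AP-1 transcription factor. Promoter windows from RefSeq (build GRCm38.p6, 250 bases before to 50 after each start) matched 33 of the 48 members, with 36 promoters in all. The first 5 promoters printed here are cluster genes that the results turn on or that contrast with them, and the Timp1 and Timp4 promoters are shown because these inhibitors gave the age and population differences described further on. Capitals mark 2 motifs searched on both strands, the AP-1 letters TGANTCA and the TATA box letters TATAAA.

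Mmp13, chr9:7272264-7272563, plus strand: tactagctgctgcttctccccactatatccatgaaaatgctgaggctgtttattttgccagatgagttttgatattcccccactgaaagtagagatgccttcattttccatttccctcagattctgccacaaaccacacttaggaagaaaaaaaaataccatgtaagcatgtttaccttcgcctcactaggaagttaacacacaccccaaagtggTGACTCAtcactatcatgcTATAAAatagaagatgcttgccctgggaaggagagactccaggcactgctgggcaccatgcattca

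Mmp3, chr9:7445572-7445871, plus strand: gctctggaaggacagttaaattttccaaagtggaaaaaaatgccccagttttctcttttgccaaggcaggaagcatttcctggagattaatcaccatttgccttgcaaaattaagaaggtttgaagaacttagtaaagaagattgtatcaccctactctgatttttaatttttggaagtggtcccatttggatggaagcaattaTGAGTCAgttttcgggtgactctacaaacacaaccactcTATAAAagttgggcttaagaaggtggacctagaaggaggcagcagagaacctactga

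Mmp10, chr9:7502092-7502391, plus strand: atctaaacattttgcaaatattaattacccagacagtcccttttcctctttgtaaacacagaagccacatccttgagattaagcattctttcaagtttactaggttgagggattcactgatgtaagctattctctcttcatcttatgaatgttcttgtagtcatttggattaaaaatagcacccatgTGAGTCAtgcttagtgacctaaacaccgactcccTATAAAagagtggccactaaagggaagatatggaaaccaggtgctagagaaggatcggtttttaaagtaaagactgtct

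Mmp12, chr9:7347124-7347423, plus strand: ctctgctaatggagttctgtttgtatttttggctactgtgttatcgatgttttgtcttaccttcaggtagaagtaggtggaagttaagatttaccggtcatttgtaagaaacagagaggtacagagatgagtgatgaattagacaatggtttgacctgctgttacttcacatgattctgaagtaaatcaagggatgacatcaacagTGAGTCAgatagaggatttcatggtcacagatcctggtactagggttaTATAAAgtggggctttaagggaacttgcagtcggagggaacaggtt

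Mmp8, chr9:7558179-7558478, plus strand: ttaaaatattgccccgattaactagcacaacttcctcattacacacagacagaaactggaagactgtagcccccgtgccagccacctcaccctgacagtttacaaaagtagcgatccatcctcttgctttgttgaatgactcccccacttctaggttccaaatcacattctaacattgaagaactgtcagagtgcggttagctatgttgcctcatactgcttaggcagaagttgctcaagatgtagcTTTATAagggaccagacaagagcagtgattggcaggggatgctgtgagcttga

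Timp1, chrX:20869916-20870215, plus strand: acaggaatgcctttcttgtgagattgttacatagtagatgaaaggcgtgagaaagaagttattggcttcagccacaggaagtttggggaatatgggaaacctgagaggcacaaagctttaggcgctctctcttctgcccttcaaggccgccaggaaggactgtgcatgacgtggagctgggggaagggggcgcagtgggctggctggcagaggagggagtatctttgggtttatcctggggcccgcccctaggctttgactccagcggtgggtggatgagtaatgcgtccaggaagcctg

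Timp4, chr6:115252156-115252455, minus strand: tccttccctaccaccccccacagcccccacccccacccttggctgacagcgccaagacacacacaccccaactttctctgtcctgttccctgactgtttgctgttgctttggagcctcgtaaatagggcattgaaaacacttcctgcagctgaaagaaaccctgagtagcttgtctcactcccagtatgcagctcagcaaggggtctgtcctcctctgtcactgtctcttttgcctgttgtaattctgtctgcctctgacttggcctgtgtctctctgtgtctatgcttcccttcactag

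Of the 11 promoters of the 9 measured cluster genes, 8 (72.7%) held the AP-1 letters, in Mmp10, Mmp12, Mmp13, Mmp1a, Mmp1b, Mmp20, Mmp3 and Mmp7. Mmp8 held the TATA letters alone. None of the 25 other member promoters held the AP-1 letters, which occurred in 7.81% of 32851 mouse promoters of the same length, while TATAAA occurred in 13.6% and both together in 1.54%. In the cluster the AP-1 match began 35 bases before the start in Mmp13 and 95 bases before it in Mmp20, the nearest and the farthest. A match describes these letters in this window and is not evidence of binding, and Mmp12 has another annotated start whose window held neither motif. Only exact letters were counted, so a missing match is not evidence that a site is absent. The Timp1 window, for example, holds tgagtaa, which differs from the AP-1 letters by a letter and is not marked.

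**Figure D1:**
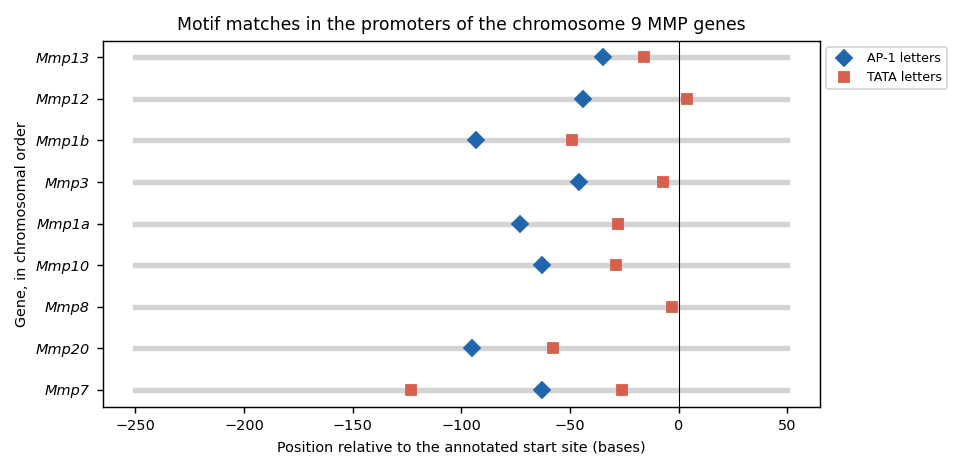
Positions of the AP-1 letters (TGANTCA) and TATA letters (TATAAA) in the promoters of the 9 chromosome 9 MMP genes, in bases from the annotated start (0), with 1 row per gene and a grey bar for the window. AP-1 letters appear in 8 genes, nearest to the start in Mmp13 at 35 bases before it, and Mmp8 has TATA letters alone.

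Between populations, a gene is said to have risen or fallen where limma's test across all 18372 genes gave a Benjamini-Hochberg adjusted p under 0.05 and the difference was at least 2-fold. The model has 2 arrays per population, 1 of each age, so a difference with age in 1 population enters the error of all comparisons. Differences are on the log2 scale after an offset of 50 was added, which understates those of dim genes. Of the 45 tested members, 19 (42.2%) differed in at least 1 of the 3 comparisons, against 16.7% of all genes, and 26 did not pass in any.

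Against satellite cells, PDGFRa+ cells were higher in 8 of 45 members (17.8%) and lower in 2 (4.44%), where 4.09% and 3.2% of all genes passed in those directions, 7.28% in either. Against CD31_CD45 cells they were higher in 11 members (24.4%) and lower in 2 (4.44%), where the shares of all genes were 4.69% and 5.39%, 10.1% in either direction. Satellite cells were higher than CD31_CD45 cells in 9 members (20%) and lower in 3 (6.67%), against 5.11% and 6.56% of all genes, 11.7% in either direction. The median member differed little: 0.06, 0.16 and 0.07 on the log2 scale in these 3 comparisons, against -0.01, 0.01 and 0.02 for all genes. The PDGFRa+ population was brightest for 23 of the 45 members (51.1%), satellite cells for 11 (24.4%) and CD31_CD45 cells for 11 (24.4%), while among all genes the shares were 30.3%, 39.1% and 30.6%.

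**Figure D2:**
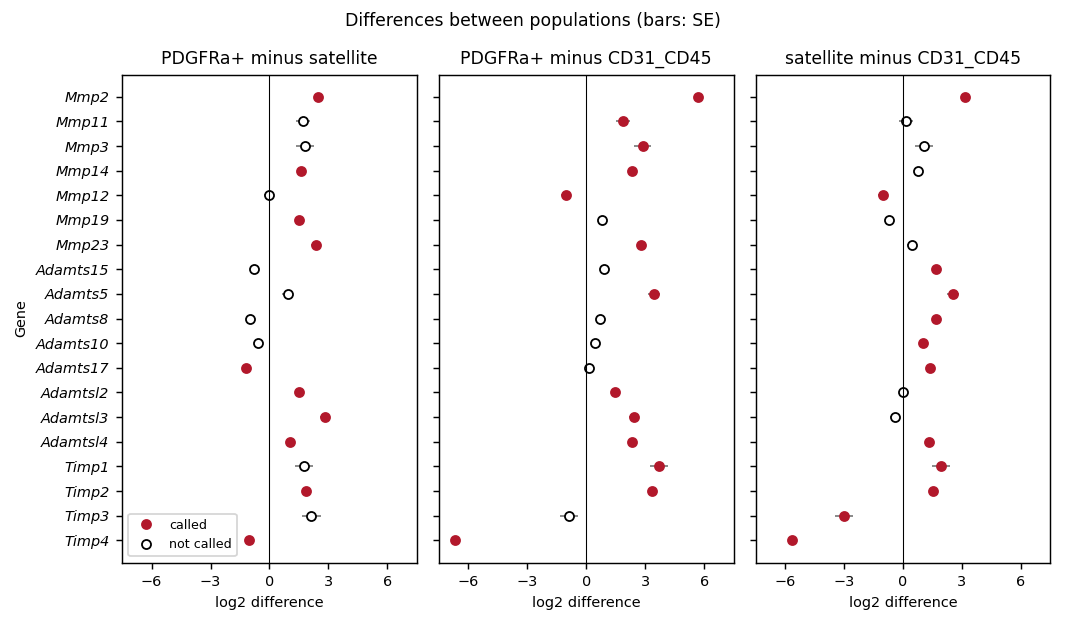
Log2 difference, with bars of 1 SE from limma, of the 19 members that passed in at least 1 of the 3 population comparisons. Filled points passed in that comparison and open points did not. Timp4 lies farthest from 0, at -6.68 in PDGFRa+ against CD31_CD45 cells, and Mmp2 farthest on the positive side, at 5.66.

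The counts against satellite cells rest on both PDGFRa+ arrays: without the aged PDGFRa+ array no member passed, and without the young one none passed either. In these fits, with 1 residual degree of freedom, 0 of all genes passed too, although 5029 to 5424 genes had an unadjusted p under 0.05. Against CD31_CD45 cells, 6 members passed without the young PDGFRa+ array, 7 without the aged CD31_CD45 array and 8 without the young one. Between satellite and CD31_CD45 cells, 6 passed without the aged CD31_CD45 array. With the scanner set as a term, 12, 10 and 12 members passed in the 3 comparisons, and these held 9 of the 10, 9 of the 13 and 10 of the 12 members called without it. Both PDGFRa+ arrays lie in 1 scanner set and both CD31_CD45 arrays in the other, so the term rests on the satellite arrays alone, where set and age cannot be told apart. For the fits of this paragraph in which members passed, the counts over all genes are not given here. Whether the members moved apart from the other genes can therefore not be read from these counts.

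The collagenases cut fibrillar collagen, and none rose or fell between populations. Mmp8, the neutrophil collagenase, read 1.2 and 2.5 in aged and young PDGFRa+ cells and 3.5 and 1.1 in aged and young satellite cells, against 42.9 in aged and 26.2 in young CD31_CD45 cells. The CD31_CD45 arrays lay above all others, but on the offset scale the differences were under 2-fold (-0.90 for PDGFRa+ against CD31_CD45 cells, SE 0.11, adjusted p = 0.0132, and -0.89 for satellite against CD31_CD45 cells, adjusted p = 0.0113). Of 11 neutrophil markers, 6 fell in PDGFRa+ and 4 in satellite cells against CD31_CD45 cells, where 5.39% and 6.56% of all genes fell. S100a8 and S100a9 read 1325.4 and 2323.1 in aged and 716.8 and 1386.7 in young CD31_CD45 cells and made up most of the summed level, and the other 9 markers summed to 116.9 and 133.6 in aged and young PDGFRa+ cells and to 135.7 and 141.1 in aged and young satellite cells, against 748.1 and 497.1 in aged and young CD31_CD45 cells. Ly6g (52.5 to 121.2) and Elane (4.8 to 7.0) were not called, and Mpo was highest in aged satellite cells, at 15, and not above background in aged CD31_CD45 cells. Their part in the Mmp8 difference was not tested. Mmp13, the main interstitial collagenase of rodents, read 82.7 in aged satellite cells, against 5.6 in young ones and 3.2 to 15.8 on the other 4 arrays.

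Among the gelatinases, which cleave denatured collagen and basement membrane, Mmp2 set PDGFRa+ cells apart from both other populations. It read 3649.8 in aged and 4625.0 in young PDGFRa+ cells, 596.3 and 812.3 in aged and young satellite cells, and 59.0 and 40.2 in aged and young CD31_CD45 cells. The 3 populations did not overlap at either age. Mmp2 was higher by 2.49 in PDGFRa+ than in satellite cells (SE 0.21, limma adjusted p = 0.0108), by 5.66 than in CD31_CD45 cells (SE 0.21, adjusted p = 0.0019), and by 3.18 in satellite than in CD31_CD45 cells (SE 0.21, adjusted p = 0.0040). In sorted bulk populations, fewer cells of a type and less RNA per cell cannot be told apart. Mmp9, the gelatinase known from neutrophils and macrophages, was not above background in either PDGFRa+ array. It read 11.8 in aged and 7.7 in young CD31_CD45 cells. On the offset scale this was at least 1.25-fold higher than in PDGFRa+ cells when their signal was set to the lowest detected one. The differences were under 2-fold on that scale: -0.345 for PDGFRa+ (limma adjusted p = 0.0146) and -0.297 for satellite cells (adjusted p = 0.0167), both against CD31_CD45 cells.

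The stromelysins cleave many matrix proteins and can open other MMP precursors. Mmp3 (stromelysin-1) read 261.7 in aged and 235.5 in young PDGFRa+ cells, 100.2 in aged and 10.7 in young satellite cells, and 4.2 and 2.7 in aged and young CD31_CD45 cells. It rose by 2.87 in PDGFRa+ against CD31_CD45 cells (SE 0.45, limma adjusted p = 0.0244). Against satellite cells the difference was 1.81 (SE 0.45, adjusted p = 0.0703) and did not pass. Mmp11 (stromelysin-3), known from stromal fibroblasts around tumours, read 594.2 in aged and 307.1 in young PDGFRa+ cells, 109.6 and 93.3 in aged and young satellite cells, and 74.8 and 106.3 in aged and young CD31_CD45 cells. Both PDGFRa+ arrays lay above all others, yet the difference passed against CD31_CD45 cells alone (1.86, SE 0.36, adjusted p = 0.0370) and missed the threshold against satellite cells (1.70, adjusted p = 0.0504).

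Membrane-type MMPs act at the cell surface, and Mmp14 (MT1-MMP) is known as the activator of proMMP-2 in a complex with TIMP-2. Mmp14 read 263.3 in aged and 208.9 in young PDGFRa+ cells, 71.1 and 37.2 in aged and young satellite cells, and 20.0 and 14.6 in aged and young CD31_CD45 cells. The populations were again separate, and Mmp14 was higher in PDGFRa+ cells by 1.59 against satellite cells (SE 0.13, limma adjusted p = 0.0102) and by 2.35 against CD31_CD45 cells (SE 0.13, adjusted p = 0.0034). Mmp2, Mmp14 and Timp2, the members of that activation complex, thus all passed as higher in PDGFRa+ cells than in each other population. Mmp16 (MT3-MMP) read 9.8 in aged and 19.9 in young PDGFRa+ cells, and 2.4 and 1.3 in aged and young satellite cells. It was not above background in CD31_CD45 cells. On the offset scale PDGFRa+ cells were at least 1.41-fold above CD31_CD45 cells (0.52, limma adjusted p = 0.0338), which is under the 2-fold threshold. Mmp25, known as a leukocyte enzyme, read 2.5 and 3.9 in aged and young PDGFRa+ cells, 10.0 and 13.9 in aged and young satellite cells, and 2.1 and 2.8 in aged and young CD31_CD45 cells, highest in satellite cells and below the array median throughout.

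Of the remaining MMPs, Mmp23, a small membrane-anchored enzyme that is cut loose during secretion, read 269.6 in aged and 350.7 in young PDGFRa+ cells, 45.6 and 17.0 in aged and young satellite cells, and 12.5 and 13.4 in aged and young CD31_CD45 cells. It rose in PDGFRa+ cells by 2.37 against satellite cells (SE 0.25, limma adjusted p = 0.0150) and by 2.81 against CD31_CD45 cells (SE 0.25, adjusted p = 0.0078). Mmp12, the macrophage elastase, went the other way, with at most 2.5 in PDGFRa+ and satellite cells, against 60.6 in aged and 23.8 in young CD31_CD45 cells. It stood at -1.05 in PDGFRa+ cells (SE 0.23, limma adjusted p = 0.0478) and at -1.03 in satellite cells (SE 0.23, adjusted p = 0.0437), both against CD31_CD45 cells. These calls held in 5 and 7 of the 15 alternatives that gave a value. All 12 macrophage markers fell in both comparisons, where 5.39% and 6.56% of all genes fell. The summed level of macrophage markers was no more than 2086.8 in PDGFRa+ and satellite cells, against 28672.4 in aged and 24339.4 in young CD31_CD45 cells. The part of macrophage RNA in the Mmp12 difference was not tested.

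Mmp19, a widely expressed enzyme of the basement membrane, read 211.6 in aged and 264.4 in young PDGFRa+ cells, 69.9 and 49.0 in aged and young satellite cells, and 110.9 and 131.7 in aged and young CD31_CD45 cells. It rose by 1.51 in PDGFRa+ against satellite cells (SE 0.16, limma adjusted p = 0.0148), and the populations did not overlap. Its probes disagreed on the mixed population: against CD31_CD45 cells PDGFRa+ cells differed by 0.78 on the brightest probe, and by 1.65 and 0.80 on the other probes.

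The ADAMTS enzymes that cleave proteoglycans such as aggrecan and versican had 3 of 7 members called higher in satellite cells than in CD31_CD45 cells (Adamts15, Adamts8 and Adamts5), 1 of 7 called higher in PDGFRa+ than in CD31_CD45 cells (Adamts5), and none called between PDGFRa+ and satellite cells. The shares of all genes were 5.11%, 4.69% and, in either direction, 7.28%. Adamts15 read 70.6 and 103.2 in aged and young PDGFRa+ cells, 181.8 and 151.7 in aged and young satellite cells, and 35.8 and 27.4 in aged and young CD31_CD45 cells. Adamts8 read 51.6 and 18.7 in aged and young PDGFRa+ cells, 135.0 and 71.9 in aged and young satellite cells, and 11.3 and 5.8 in aged and young CD31_CD45 cells. The satellite arrays lay above all others for both genes. Against CD31_CD45 cells, satellite cells rose by 1.66 in Adamts15 (SE 0.16, limma adjusted p = 0.0074) and by 1.67 in Adamts8 (SE 0.19, adjusted p = 0.0101). PDGFRa+ cells stood at -0.78 and -0.98 against satellite cells in these genes, under 2-fold.

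Adamts5, the main aggrecanase of mouse cartilage, read 779.3 in aged and 838.6 in young PDGFRa+ cells, 539.9 in aged and 258.6 in young satellite cells, and 45.5 and 33.3 in aged and young CD31_CD45 cells. It rose by 3.45 in PDGFRa+ cells (SE 0.30, limma adjusted p = 0.0073) and by 2.53 in satellite cells (SE 0.30, adjusted p = 0.0111), both against CD31_CD45 cells. Between PDGFRa+ and satellite cells the difference was 0.92 (adjusted p = 0.118), and the aged satellite array lay nearer to the PDGFRa+ arrays than the young one. Adamts1, an inducible versican-cleaving enzyme, was bright everywhere, with 1423.6 and 1257.1 in aged and young PDGFRa+ cells, 1954.5 and 1460.3 in aged and young satellite cells, and 1809.3 and 2226.3 in aged and young CD31_CD45 cells, and passed in no comparison. The procollagen N-propeptidases measured, Adamts3 and Adamts14, read 8.6 to 16.0 on all arrays and passed in none either.

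Among the other ADAMTS genes, Adamts17, whose protein acts on fibrillin-rich microfibrils, was the only member called higher in satellite cells than in both other populations. That is 2.22% of the 45 tested members, near the share of 2.13% over all genes. It read 37.2 and 41.2 in aged and young PDGFRa+ cells, 106.1 and 166.9 in aged and young satellite cells, and 31.8 and 33.8 in aged and young CD31_CD45 cells. The log2 difference was -1.19 for PDGFRa+ against satellite cells (SE 0.15, limma adjusted p = 0.0188). For satellite against CD31_CD45 cells it was 1.35 (SE 0.15, adjusted p = 0.0096). These calls held in 10 and 13 of 16 alternatives. Adamts10, also a microfibril-associated member, read 63.9 and 65.7 in aged and young PDGFRa+ cells, 110.1 and 114.3 in aged and young satellite cells, and 35.6 and 42.4 in aged and young CD31_CD45 cells. The satellite arrays lay above the rest, and satellite cells rose by 1.03 against CD31_CD45 cells (SE 0.08, adjusted p = 0.0050).

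The ADAMTS-like proteins, which bind microfibrils and latent growth factor complexes without cleaving them, had 3 of 5 members called higher in PDGFRa+ cells than in satellite cells, and the same 3 against CD31_CD45 cells. The shares of all genes were 4.09% and 4.69%. Adamtsl1 and Adamtsl5 passed in neither comparison. Adamtsl3 read 301.9 in aged and 420.2 in young PDGFRa+ cells, 29.7 and 10.1 in aged and young satellite cells, and 34.1 and 40.6 in aged and young CD31_CD45 cells. Adamtsl2, which binds latent TGF-beta binding protein and fibrillin, read 47.8 in aged and 85.1 in young PDGFRa+ cells, and 1.6 or less elsewhere. Adamtsl4, a fibrillin-1 binding protein, read 315.2 in aged and 279.6 in young PDGFRa+ cells, 135.0 and 110.6 in aged and young satellite cells, and 32.1 and 30.3 in aged and young CD31_CD45 cells. In all 3 genes the PDGFRa+ arrays lay above every other array. PDGFRa+ cells rose against satellite cells by 2.83 in Adamtsl3 (SE 0.24, limma adjusted p = 0.0110), by 1.48 in Adamtsl2 (SE 0.14, adjusted p = 0.0134) and by 1.02 in Adamtsl4 (SE 0.09, adjusted p = 0.0115). Against CD31_CD45 cells they rose by 2.42 (SE 0.24, adjusted p = 0.0094), 1.48 (SE 0.14, adjusted p = 0.0090) and 2.32 (SE 0.09, adjusted p = 0.0020) in the same genes, and Adamtsl4 also rose by 1.30 in satellite against CD31_CD45 cells (SE 0.09, adjusted p = 0.0043).

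The 4 TIMPs divided between the populations. Timp2, which inhibits MMP-2 and also takes part in its activation, read 1405.5 in aged and 1576.5 in young PDGFRa+ cells, 386.4 and 326.5 in aged and young satellite cells, and 114.9 and 97.2 in aged and young CD31_CD45 cells. Timp2 was higher by 1.85 in PDGFRa+ than in satellite cells (SE 0.12, limma adjusted p = 0.0078), by 3.37 than in CD31_CD45 cells (SE 0.12, adjusted p = 0.0018), and by 1.52 in satellite than in CD31_CD45 cells (SE 0.12, adjusted p = 0.0052). Timp4 ran the opposite way, with 25 and 13.3 in aged and young PDGFRa+ cells, 84.9 and 67.9 in aged and young satellite cells, and 4449.4 and 4860.5 in aged and young CD31_CD45 cells. This was the largest difference among the members: -6.68 for PDGFRa+ against CD31_CD45 cells (SE 0.14, adjusted p = 0.0009), -5.64 for satellite against CD31_CD45 cells (SE 0.14, adjusted p = 0.0010) and -1.03 for PDGFRa+ against satellite cells (SE 0.14, adjusted p = 0.0213). Of all members, 7 were called higher in PDGFRa+ cells than in both other populations (Mmp2, Mmp14, Mmp23, Adamtsl2, Adamtsl3, Adamtsl4 and Timp2, 15.6% against 2.42% of all genes). In CD31_CD45 cells 2 were (Mmp12 and Timp4, 4.44%, near the 4.54% of all genes).

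Timp1, the inducible inhibitor of many MMPs, read 970.9 in aged and 339.2 in young PDGFRa+ cells, 247.1 and 67.1 in aged and young satellite cells, and 12.1 and 9.4 in aged and young CD31_CD45 cells. The aged satellite array came near the young PDGFRa+ one, and the difference between these populations did not pass (1.76, SE 0.45, limma adjusted p = 0.0738). Timp1 was higher than in CD31_CD45 cells by 3.70 in PDGFRa+ cells (SE 0.45, adjusted p = 0.0144) and by 1.93 in satellite cells (SE 0.45, adjusted p = 0.0486). Timp3, the matrix-bound inhibitor that also acts on ADAM and ADAMTS proteases, read 1726.5 and 2343.8 in aged and young PDGFRa+ cells, 581.7 and 274.9 in aged and young satellite cells, and 2607.1 and 3659.1 in aged and young CD31_CD45 cells. It fell in satellite against CD31_CD45 cells (-3.01, SE 0.47, adjusted p = 0.0201), and the difference of 2.13 between PDGFRa+ and satellite cells missed the threshold (adjusted p = 0.0545).

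The members not yet described passed in no comparison. Among membrane-type enzymes Mmp17 read 10.1 to 30 and Mmp24 5.1 to 8.1 over the 6 arrays, and Mmp28, an epithelial enzyme, read 6.9 to 10.7. Among proteoglycan-cleaving ADAMTS enzymes, Adamts4 read 162.2 in aged and 87.2 in young satellite cells and 48.8 to 71.2 on the other arrays, so that the satellite arrays lay highest without passing the test. Adamts9 read 4.8 to 27.6, highest in young CD31_CD45 cells, and Adamts20 2.3 to 14.2. Of the other ADAMTS genes, Adamts7 read 23.2 to 32.2 and Adamts16 17.1 to 29.7, near the array median throughout, while Adamts6, Adamts12, Adamts18 and Adamts19 stayed at or under 11.1. Adamtsl5 read 11.9 to 21.5. Adamtsl1 read 59.7 and 149.1 in aged and young PDGFRa+ cells, 58.5 and 44.6 in aged and young satellite cells, and 24.1 and 12.6 in aged and young CD31_CD45 cells, a difference of 1.33 between PDGFRa+ and CD31_CD45 cells that did not pass (limma adjusted p = 0.0657).

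**Figure D3:**
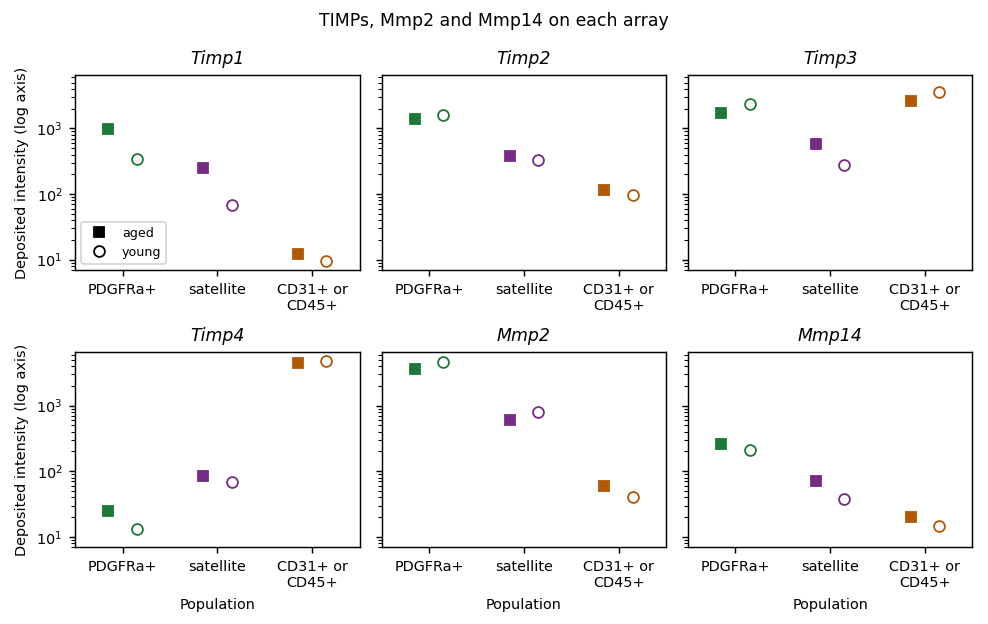
Deposited intensity (log axis) of the 4 TIMP genes, Mmp2 and Mmp14 in each population, with 1 point per array, aged left of young. Timp4 reads at most 84.9 in PDGFRa+ and satellite cells, against 4449.4 and 4860.5 in aged and young CD31_CD45 cells, while Timp1, Timp2, Mmp2 and Mmp14 are brightest in PDGFRa+ cells.

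**Figure D4:**
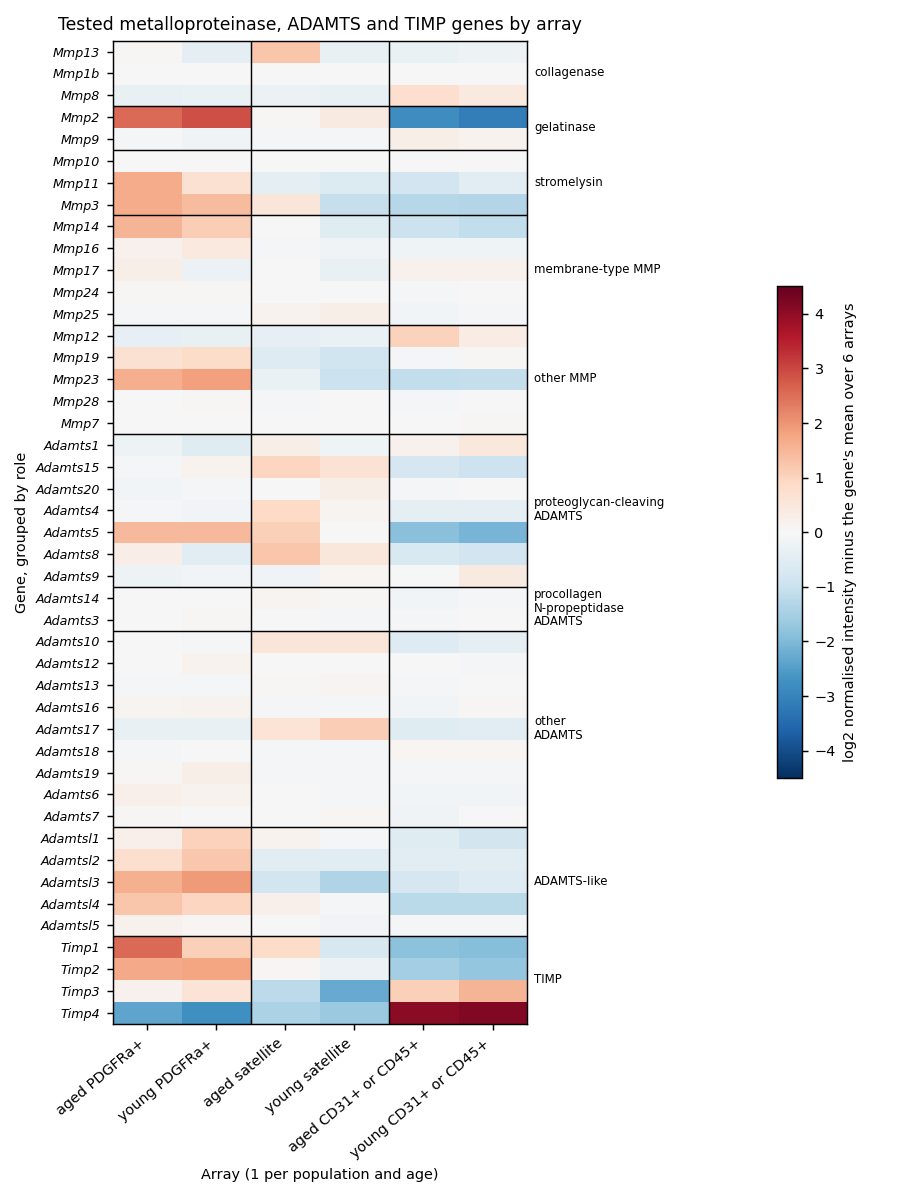
Log2 level of each tested member on the 6 arrays relative to its own mean over the arrays, grouped by role, with aged left of young in each population. Members brightest in PDGFRa+ cells are the most numerous, at 23 of 45.

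Partners and substrates of these enzymes were read from lists of the same pathway, with the largest called differences of each list named, and Reck and Vcan added for their roles. Over all genes, 4.09% rose and 3.2% fell in PDGFRa+ against satellite cells, and 4.69% and 5.39% against CD31_CD45 cells. In satellite against CD31_CD45 cells 5.11% rose and 6.56% fell. These shares apply to all 4 lists, and the lowest counts lie near them. Of 23 tested activators, inhibitors and docking proteins of MMPs, 10 rose and 1 fell in PDGFRa+ against satellite cells, led by Ctsk, a collagen-cleaving cathepsin (3.62), Pcsk6, a proprotein convertase (3.58), the cathepsin inhibitor Cst3 (2.81) and Lrp1, the receptor that takes up MMP and TIMP complexes (2.71). Against CD31_CD45 cells 10 rose and 2 fell, with Ctsk at 4.5, Thbs2, a matricellular protein that binds MMP-2, at 4.20, Lrp1 at 4.06, and Ctss, a cathepsin of antigen-presenting cells, at -5.19. In satellite against CD31_CD45 cells 2 rose (Thbs2 at 2.57 and Lrp1 at 1.35) and 4 fell, among them Ctss at -5.35 and Cst3 at -2.47. Lrp1 read 3037.2 and 2105.0 in aged and young PDGFRa+ cells, 372.9 and 306.5 in aged and young satellite cells, and 128.9 and 103.2 in aged and young CD31_CD45 cells. Reck, a membrane-bound MMP inhibitor, read 115.6 and 174.6 in aged and young PDGFRa+ cells, 39.1 and 25.6 in aged and young satellite cells, and 17.0 and 14.1 in aged and young CD31_CD45 cells, and rose in PDGFRa+ cells by 1.39 against satellite and 1.81 against CD31_CD45 cells. The populations did not overlap for either gene.

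Of 23 tested matrix substrates, 14 rose and none fell in PDGFRa+ against satellite cells, led by the basement membrane gene Nid1 (4.94), the proteoglycan gene Dcn (4.39), Fn1, which encodes fibronectin (4.13), and the collagen gene Col1a2 (3.85). Against CD31_CD45 cells 13 rose and none fell, with Dcn at 6.31 and the collagen genes Col1a2 at 6.18, Col3a1 at 6.06 and Col5a1 at 5.72. In satellite against CD31_CD45 cells 4 rose, with Col5a1 at 3.87, Col3a1 at 3.32 and Postn, which encodes periostin, at 1.84, and 1 fell, the basement membrane collagen gene Col4a2 at -2.39. Versican (Vcan), cleaved by several of the proteoglycan-cleaving ADAMTS enzymes, read 84.3 and 76.0 in aged and young PDGFRa+ cells, 11.9 and 10.4 in aged and young satellite cells, and 8.6 and 10.7 in aged and young CD31_CD45 cells. It rose in PDGFRa+ cells by 1.35 against satellite and 1.40 against CD31_CD45 cells. Adamts5 was highest in PDGFRa+ cells as well, while Adamts8 and Adamts15 were highest in satellite cells. None of these enzymes was called between PDGFRa+ and satellite cells (0.92 for Adamts5, -0.98 for Adamts8 and -0.78 for Adamts15).

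Of 17 procollagen processing and crosslinking genes, 7 rose against satellite cells in PDGFRa+ cells and none fell, led by the enhancers of procollagen C-proteinase Pcolce2 (4.87) and Pcolce (4.53) and by Loxl2 (2.16) and Lox (1.93) of the lysyl oxidase family, which crosslinks collagen. Against CD31_CD45 cells 8 rose and none fell, with Pcolce2 at 6.32, Loxl1 at 5.64, Pcolce at 4.60 and Loxl2 at 3.21. In satellite against CD31_CD45 cells 3 rose (Loxl1 at 4.20, Pcolce2 at 1.45 and Loxl2 at 1.05) and 1 fell, the lysyl hydroxylase gene Plod1 at -1.94. Among 12 ADAM proteases, most of them membrane-bound relatives of ADAMTS, 4 rose and none fell in PDGFRa+ against satellite cells: Adam19 (2.34), Adam33 (1.49), Adam9 (1.47) and Adam15 (1.36). Against CD31_CD45 cells 3 rose, among them Adam19 at 1.55 and Adam33 at 1.42, and 2 fell, Adam15 at -2.22 and Adam10 at -1.12. In satellite against CD31_CD45 cells Adam15 stood at -3.57, and Adam10 and the TNF-releasing protease Adam17 at -1.13 each.

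The medians over these lists in PDGFRa+ against satellite cells were 0.88 for activators and inhibitors, 1.76 for substrates, 1.00 for procollagen processing and 0.43 for ADAM proteases, against 0.06 for the members and -0.01 for all genes.

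With age, no member passed. The age term shared by the 3 populations (3 aged against 3 young arrays) called 0 of 45 members and 0 of 18372 genes (0%) with limma, and 0 under limma's trend and robust variants. At an unadjusted p under 0.05 there were 3 members (Mmp14 at 0.36, Adamts8 at 0.57 and Adamts9 at -0.26) and 2026 of all genes. The lowest adjusted p among members was 0.393, for Adamts8. Timp1 had a common difference of 1.04 (SE 0.37, adjusted p = 0.461).

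Within a population, 1 aged array was set against 1 young array, which allows no test. In PDGFRa+ cells 1 of 44 members above background on the brighter array was at least 2-fold apart, against 0.416% of all genes (0.255% higher and 0.161% lower in aged cells). It was Timp1, 1.49 higher in aged cells on the log2 scale, and the sign turned (-0.14) when the local background of each spot was subtracted instead of the blank spots. Mmp11 followed at 0.97, with 594.2 in aged and 307.1 in young cells, while Adamtsl1 stood at -0.80, with 59.7 in aged and 149.1 in young cells and a smaller difference on its other probe. The aged PDGFRa+ array also had more signal of the macrophage gene Lyz2 (1904.6, against 110.1 in the young array), while the other 11 macrophage markers summed to 182.2 in the aged and 191.3 in the young array. Glial markers summed to 726.5 in the aged and 389 in the young array, with Sox10 1.65 higher. Pericyte and smooth muscle markers summed to 1636.6 in the aged and 1251.9 in the young array, with Acta2 and Tagln at least 2-fold higher, and mast cell markers to 298.6 in the aged and 201.2 in the young array, with Cma1 1.36 higher. Their part in the Timp1 difference was not tested.

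In satellite cells 5 of 46 members were at least 2-fold apart, all higher in aged cells, against 1.22% of all genes in either direction, 1.12% higher and 0.099% lower in aged cells. Mmp3 was 1.60 higher in aged cells, Mmp13 1.57, Timp1 1.56, Timp3 1.09 and Adamts5 1.05 on the log2 scale. In deposited intensity the ratio of aged to young was 14.8 for Mmp13 and 9.36 for Mmp3, which are larger because no offset is added there. With the local background, Adamts5 was 0.23 apart and Mmp13 0.999. Both MMPs lie in the chromosome 9 cluster and hold the AP-1 and TATA letters shown above, as do Mmp10, Mmp12, Mmp1a, Mmp1b, Mmp20 and Mmp7. Mmp10 read 1.0 in aged and 1.7 in young satellite cells, Mmp12 1.5 and 2.5, Mmp1b 2.2 and 1.7, and Mmp7 6.5 and 6. None of these was 2-fold apart on the log2 scale. With readings this low on both arrays, the added offset holds any difference under 2-fold, so the dim signal set that result. Whether these dim genes changed with age can therefore not be read from it. The part of the AP-1 and TATA letters in the age differences was not tested. Across all 46 members the median difference was 0.05, against -0.02 for all genes. In CD31_CD45 cells 0 of 44 members were 2-fold apart, against 0.575% of all genes (0.509% higher and 0.0657% lower in aged cells). The nearest were Mmp12 at 0.70 (60.6 in aged and 23.8 in young cells) and Timp3 at -0.43 (2607.1 in aged and 3659.1 in young cells).

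**Figure D5:**
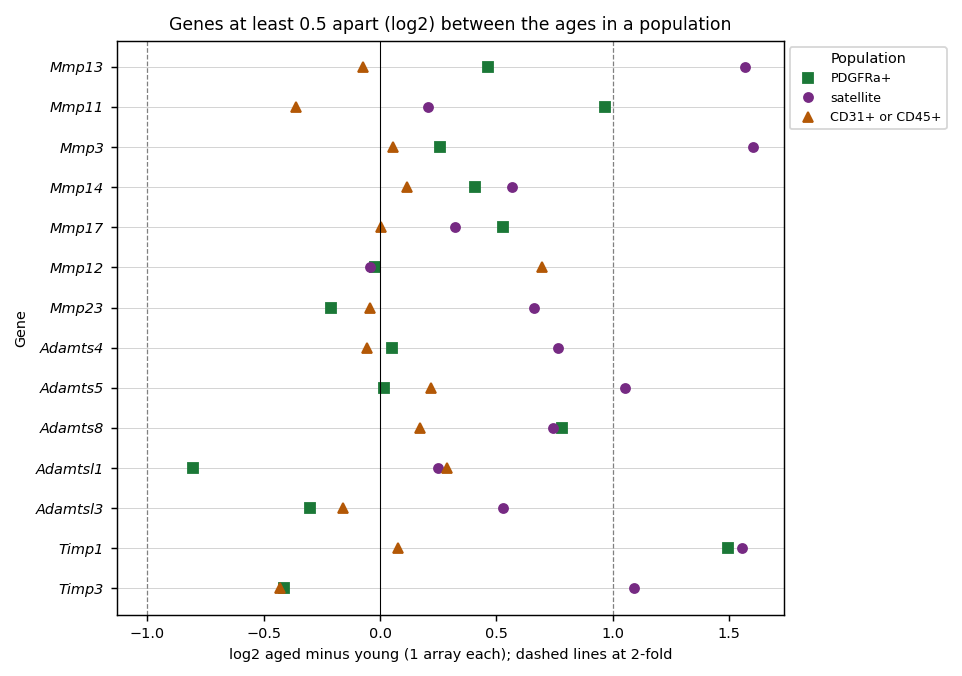
Aged minus young log2 difference in each population (symbols), from 1 aged and 1 young array and without a test, for the members at least 0.5 apart in a population, with dashed lines at 2-fold. In satellite cells Mmp3, Mmp13, Timp1, Timp3 and Adamts5 lie beyond 2-fold, in PDGFRa+ cells Timp1, and in CD31_CD45 cells none.

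Signal of other cell types was also higher in the aged satellite array. The summed level of tendon markers was 3298.7 in aged and 909.3 in young satellite cells, with 4 of 7 markers at least 2-fold higher. Of all genes, 1.12% were at least 2-fold higher in this pair. For mesenchymal markers the sums were 12738.7 in aged and 9881.7 in young cells (4 of 11 higher), for pericyte markers 9759.3 and 5805.7 (5 of 10), for myofibre markers 5053.3 and 2747.2 (5 of 10), and for macrophage markers 1103.7 and 245.3 (1 of 12, Lyz2, with 138.4 and 98.0 for the other 11). Pdgfra itself read 60.6 in aged and 7.6 in young satellite cells. The aged and young satellite arrays also belong to different scanner sets. Among matrix substrates 8 of 23 were at least 2-fold higher in aged satellite cells, against 1.12% of all genes. Dcn, which encodes decorin, stood at 2.34 and Comp, which encodes a tendon and cartilage matrix protein, at 2.13. Dcn and the collagen gene Col1a1 are also counted among the mesenchymal markers above, and Comp among the tendon markers, so these counts overlap.

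Set against the aged PDGFRa+ array, the gain in satellite cells (aged minus young intensity) came to 488% of the aged PDGFRa+ level for Mmp13, 36.1% for Adamts5, 34.2% for Mmp3, 18.5% for Timp1 and 17.8% for Timp3. The same measure was 1.28% for Pdgfra, with a median of 1.25% over 11 mesenchymal markers (-58.7% to 10.9%) and of 16.8% over 7 tendon markers (-0.866% to 46.9%). The value of -58.7% is that of Tcf4, which read 24.0 in aged PDGFRa+ and 30.7 in aged satellite cells. The part of mesenchymal, tendon, pericyte or fibre RNA in these differences was not tested.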

How the data were processed

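The scanner files deposited by the authors give, per the file headers, median spot intensity at 635 nm merged from 3 scanner gains, for 27456 spots on each of 6 arrays. The authors' deposited value table holds linear intensity, which a comparison with the scanner files showed to be the spot median minus the mean of 2736 blank spots (5% trimmed), multiplied by 1 factor per array, to within 0.0559. It is empty where a spot was not above background. The files name no genome build. Spot medians were corrected here with normexp (blank spots as background, offset 50), turned into log2 values and quantile normalised between arrays, where the deposited files hold no log2 values. Symbols came from the platform annotation, updated by Entrez identifier (20556 of 20690 named probes matched). For the 1283 genes with several probes, the brightest was used. The 18372 genes above background on at least 2 arrays were tested with limma 3.58.1 in R 4.3.3 (population and age as terms, 2 residual and 1.5 prior degrees of freedom, two-sided, Benjamini-Hochberg adjustment over all genes in each comparison). Figures were drawn with matplotlib 3.10.9. The scripts were tested on simulated data.

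The local background of each spot followed the signal of that spot (correlation of logs across spots 0.965 to 0.982), so it was kept as an alternative. Within a population, genes were counted as at least 2-fold apart where the brighter of the arrays was above background. The number of arrays limits the precision. No population and age has a replicate, so the residual error behind the p-values is how far aged minus young differences disagree between populations. That disagreement may be technical or biological, and the p-values do not separate these. Values on every array are given for the TIMPs, for members called in a population comparison and for members at least 2-fold apart with age, other members are given by role with ranges or values, and the 4 largest called differences are named per pathway list and comparison. The members and lists were chosen with earlier results of these data known. Alternatives changed the background, the offset, the scaling, the filter, the probe rule, limma's variance settings, the scanner set as a term, and left out each array in turn.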

Additional observations from a re-analysis of the deposited data

Results flagged for a closer look

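In 2 members the aged minus young difference was at least 2-fold in satellite cells and had the opposite sign in another population. The share of all genes that meet this rule was not counted. Each population has 1 aged and 1 young array, so the difference between the pairs was not tested. Timp3 was 1.09 higher in aged than in young satellite cells on the log2 scale, and stood at -0.41 in aged against young PDGFRa+ cells and at -0.43 in aged against young CD31_CD45 cells. Mmp13 was 1.57 higher in aged than in young satellite cells and stood at -0.07 in aged against young CD31_CD45 cells, where it read 6.0 and 7.8, both under the array median of 25. That is close to no difference, and in PDGFRa+ cells Mmp13 was 0.46 higher in aged cells, as in satellite cells.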

How the results depend on the processing

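The counts moved with the processing. The called differences were chosen on these same arrays, so a kept sign was largely set in advance and is no separate support. All 35 differences of members called between populations kept their sign under every alternative that gave a value, and 5 also passed under all of them: Mmp14, Timp2 and Timp4 in PDGFRa+ against CD31_CD45 cells, and Timp2 and Timp4 in satellite against CD31_CD45 cells. Another 5 passed under at most 8 alternatives: Mmp11 and Mmp12 in PDGFRa+ against CD31_CD45 cells (Mmp12 under 5 of 15), Timp4 in PDGFRa+ against satellite cells, and Mmp12 (7 of 15) and Timp1 in satellite against CD31_CD45 cells. Of 45 members, 10 were called in PDGFRa+ against satellite cells, but 1 with the local background of each spot, 16 with an offset of 10 and 20 on the authors' value table (13 higher and 7 lower). The count was 0 without the aged or the young PDGFRa+ array, and leaving out each array in turn gave 0 to 12. Scaling by the median in place of quantiles gave 12 higher and 1 lower. Against CD31_CD45 cells, PDGFRa+ cells had 13 members called, 4 with the local background, 22 on the authors' table (16 higher and 6 lower) and 6 to 11 with 1 array left out. Satellite against CD31_CD45 cells had 12 called, 3 with the local background, 21 on the authors' table and 6 to 12 with 1 array left out. Counts over all genes moved as well. The authors' table called 2983, 3785 and 4425 of all genes in the 3 population comparisons, against 1338, 1852 and 2145 in the main fit. In PDGFRa+ against satellite cells, an offset of 10 called 2211 of all genes and median scaling 1438. The authors' table shifted the median of all genes in aged against young PDGFRa+ cells by -0.17. The common age term called 0 members under all 16 alternatives. Within PDGFRa+ cells, 1 member was 2-fold apart between ages, 4 with the local background, 6 with an offset of 10 and 8 on the authors' table, where the counts over all genes were 75, 1084, 197 and 1369. Timp1 in this pair reversed to -0.14 with the local background. Within satellite cells, 5 were 2-fold apart, and 11 on the authors' table (221 and 1794 of all genes). Within CD31_CD45 cells, 0 were, against 1 with an offset of 10 and 4 on the authors' table (105, 218 and 899 of all genes). Over all genes the local background left fewer calls between populations (68, 287 and 341, against 1338, 1852 and 2145) but put more genes 2-fold apart with age (1084, 1265 and 926, against 75, 221 and 105), and a smaller offset widens differences of dim genes by construction. The causes of the other shifts were not tested. No paired analysis was possible because the labels carry no replicate numbers, and age is already a term of the model.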
